A study of Homo sapiens with 9 samples.

Results

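The 45 genes described here encode the machinery that licenses replication origins, unwinds DNA and copies it, together with enzymes of nucleotide supply and a few S-phase regulators. They were chosen by name, as a fixed list of gene symbols matched to the gene names of the count table, and all 45 were found among its 32378 genes. Earlier results of these data were known when the list was made. Shares over all genes given beside the 45 are thus a description and not a test of the set. RNA was sequenced from SKOV3, a cell line derived from human ovarian cancer. The 9 libraries form 3 groups of 3, labelled control, Carbo and Carbo+COM33. Carbo is taken to be carboplatin, a DNA-crosslinking platinum drug, because the series' design text names that drug, and for COM33 only the code name is known here. The stated question was how COM33 makes cells more sensitive to the drug. No group received COM33 alone, a single cell line was used, and the labels give no dose, no time and no account of what the replicate numbers stand for. The p-values therefore measure the spread between libraries, which may be technical.

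A chromosome is copied from many origins. In G1 the origin recognition complex (ORC), CDC6 and CDT1 load the ring-shaped helicase MCM2 to MCM7 onto DNA, and in S phase CDC45, GINS and MCM10 turn the loaded ring into an active helicase. DNA polymerase alpha with its primase then starts each new strand, the RFC clamp loader closes the PCNA ring around DNA, and polymerases epsilon and delta extend the strands. Many of these genes are transcribed at the border of G1 and S phase under E2F transcription factors, so their messenger RNA in a culture is known to follow the share of cells in that stage. In bulk RNA, a change in the share of such cells and a change in the RNA made per cell cannot be told apart.

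Total counts were 13851760 to 15533668 per library, and 16450 genes, including all 45, had enough counts to be tested. Levels are given as CPM, counts scaled to a common library size by TMM, as mean ± SD over n = 3 libraries unless each library is listed. All 8 epithelial and SKOV3 markers examined were among the tested genes, with ERBB2 at 1485 to 2532 CPM and PAX8 at 281.5 to 531.4 CPM. Others of that list were low, with EPCAM at 15.8 to 23.1 CPM and WT1 at 1.39 to 2.36 CPM. Of 13 markers of blood, endothelium and fibroblasts, 3 were tested. PTPRC of leukocytes reached 0.404 CPM at most, and COL1A1 of fibroblasts ran from 5.60 to 37.7 CPM.

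Per unit of length, the genes spanned a wide range in untreated cells. The deposited FPKM values (fragments scaled to exon length and library total) had a median of 4.18 over the 45 genes in the control libraries, against 4.32 over all tested genes. The highest mean was that of PCNA, the sliding clamp, at 30.9 ± 1.74 FPKM. TK1, thymidine kinase, followed at 21.6 ± 2.40 FPKM, and SLBP, which binds histone mRNA, at 20.9 ± 2.42 FPKM. These last 2 differed by less than their SD. The lowest was CCNE2, cyclin E2, at 0.280 ± 0.0731 FPKM, below POLA2 (0.712 ± 0.128 FPKM), FAM111B (0.771 ± 0.316 FPKM) and PRIM1 (0.777 ± 0.101 FPKM), which did not differ beyond their SD.

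Subunits of 1 complex, and cyclins E1 and E2, did not have equal FPKM. Within the MCM2 to MCM7 ring, control means ran from 4.01 FPKM for MCM5 to 14.7 FPKM for MCM3, a ratio of 3.67. MCM5 and MCM3 were also the lowest and highest subunits in FPKM in Carbo and in Carbo+COM33. The length behind FPKM is that of all annotated exons, 7338 bases for MCM5 and 3650 for MCM3. In CPM, which is not scaled to length, control means were 29.3 ± 1.17 for MCM5 and 53.5 ± 5.83 for MCM3. MCM6 then had the lowest mean of the ring, at 24.9 ± 5.21 CPM. The ratio and the place of MCM5 thus depend on the annotated length. The 4 small RFC subunits lay closer together in FPKM, with a ratio of highest to lowest of 1.93 in the controls. Polymerase alpha with primase ran from 0.712 FPKM for POLA2, the accessory subunit, to 4.18 FPKM for PRIM2, the large primase subunit, a ratio of 5.88. POLA2 shares 2012 exon bases with AP000944.2 on the same strand, where reads may go uncounted, so its level is uncertain. The ORC subunits among the 45, ORC1 and ORC6, stood at 1.77 and 11.4 FPKM, a ratio of 6.46. For ribonucleotide reductase, the enzyme that makes deoxynucleotides, the ratio of RRM1 to RRM2 in FPKM was 3.18, 4.28 and 3.73 in control 1 to 3. It was 4.0, 4.11 and 3.24 in Carbo 1 to 3, and 5.09, 5.31 and 5.49 in Carbo+COM33 1 to 3. The 3 Carbo+COM33 ratios were above all 6 others. The ratio of CCNE1 to CCNE2 was 23.9, 32.3 and 37.7 in the controls, 25.1, 16.4 and 13.6 in Carbo, and 42.0, 30.2 and 41.9 in Carbo+COM33, so its lowest values were those of Carbo 2 and Carbo 3. No test was made of these ratios. CCNE2 had 187 counts over the 9 libraries and shares 1629 exon bases with INTS8 on the opposite strand, so its ratio is uncertain. RRM2 shares 1077 exon bases with AC007240.1 on the same strand and has annotated pseudogene copies, so its level is uncertain too.

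**Figure D1:**
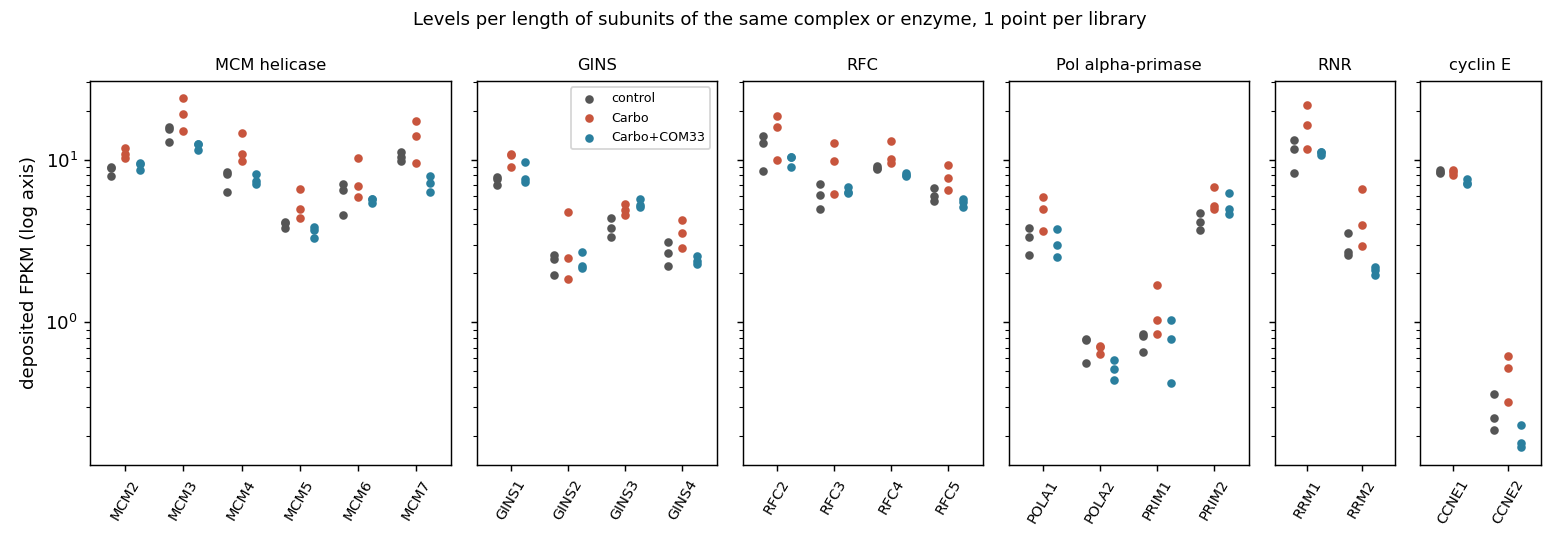
Deposited FPKM on a log axis for the subunits of 6 complexes or enzyme pairs, with 1 point per library and colour by group (grey control, red Carbo, blue Carbo+COM33). CCNE2 lies far below CCNE1 (0.280 against 8.43 FPKM in the control means). In FPKM, which depends on annotated exon length, MCM5 lies lowest among the MCM ring genes.

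Promoter sequences were compared because the genes share a class of regulator that the choice by name did not use. RefSeq windows on GRCh38.p14, from 250 bases before to 50 bases after an annotated start, were at hand for 38 of the 45 genes (49 windows, some genes having several). An E2F site, searched on both strands as TTTCCCGC, TTTGGCGC, TTTCGCGC or TTTGCCGC, lay in 21 of the 49 windows (42.9%), belonging to 20 genes. Among all 35116 windows of the table it lay in 1164 (3.31%). The CCAAT box, the letters CCAAT on either strand, lay in 28 windows (57.1%, against 34.6% of all windows). The cell cycle homology region, searched as TTTGAA or TTCGAA, lay in 2 windows (4.08%, against 16.4%), those of MCM6 and RRM1. Such matches are descriptions of the letters and not measured binding sites.

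The 30 bases around the E2F match are shown for genes that recur in the comparisons below, each 5′ to 3′ on the gene's strand with the match in capitals. CDC6, CDT1, MCM3, MCM7 and LIG1 were called lower in Carbo+COM33 than in Carbo. CDC45, MCM10, POLD1 and RRM2 were called lower as well, and none of their windows held an E2F match. MCM2, POLE2, GINS1 and GINS3 rose in the paired test of Carbo against control, as did CDC6, CDT1, MCM3, MCM7 and TYMS. None of the windows of ORC1, ORC6, MCM10, CDC45, RFC2, RFC4, RFC5, PRIM2, RRM1, RRM2, TK1 and CHAF1B held a match, and these rose too. GINS2, LIG1, POLA2, CDC25A and UHRF1 hold a match and did not pass in that test. TYMS, POLA2 and CDC25A hold a match and were not called in Carbo+COM33 against Carbo. The genes to show were picked after their values were seen. In MCM2, 2 matches on opposite strands overlap.
CDC6 (chr17:40287875-40287904, plus strand): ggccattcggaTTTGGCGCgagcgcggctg
CDT1 (chr16:88803743-88803772, plus strand): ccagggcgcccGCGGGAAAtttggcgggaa
MCM3 (chr6:52284728-52284757, minus strand): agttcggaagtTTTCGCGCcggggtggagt
MCM7 (chr7:100101388-100101417, minus strand): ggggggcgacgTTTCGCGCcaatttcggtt
LIG1 (chr19:48170440-48170469, minus strand): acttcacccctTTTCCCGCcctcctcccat
MCM2 (chr3:127598406-127598435, plus strand): aaccactTTTCGCGCGAAAcctggttgttg
POLE2 (chr14:49688201-49688230, minus strand): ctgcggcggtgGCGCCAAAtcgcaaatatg
GINS1 (chr20:25407667-25407696, plus strand): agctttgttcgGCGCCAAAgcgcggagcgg
GINS3 (chr16:58392455-58392484, plus strand): cgtccccgggcGCGGGAAAcgagtttcaat
TYMS (chr18:657603-657632, plus strand): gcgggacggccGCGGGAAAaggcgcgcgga
POLA2 (chr11:65261898-65261927, plus strand): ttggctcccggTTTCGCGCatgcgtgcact
CDC25A (chr3:48188443-48188472, minus strand): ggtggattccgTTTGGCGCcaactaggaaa

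A pair of longer upstream stretches shows both kinds of match, or 1 of them alone, with E2F and CCAAT matches in capitals. PCNA has an E2F match and CCAAT boxes on both strands, while MCM10 has CCAAT boxes and none of the E2F letters in its window.
PCNA (chr20:5126627-5126785, minus strand): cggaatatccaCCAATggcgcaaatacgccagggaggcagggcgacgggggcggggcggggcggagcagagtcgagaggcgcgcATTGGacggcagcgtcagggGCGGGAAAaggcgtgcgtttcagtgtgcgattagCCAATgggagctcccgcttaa
MCM10 (chr10:13161358-13161553, plus strand): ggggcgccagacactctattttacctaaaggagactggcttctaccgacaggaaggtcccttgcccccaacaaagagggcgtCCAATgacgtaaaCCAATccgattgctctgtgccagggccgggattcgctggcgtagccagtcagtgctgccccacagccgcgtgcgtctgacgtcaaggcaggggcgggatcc

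The genes varied together from library to library. Their summed level was 1026, 1153 and 1216 CPM in control 1 to 3, 1181, 1462 and 1798 CPM in Carbo 1 to 3, and 1130, 1052 and 1054 CPM in Carbo+COM33 1 to 3. Carbo 3 held the highest of the 9 values for 38 of the 45 genes. Within the Carbo group, Carbo 1 was the lowest library for 41 genes and Carbo 3 the highest for 39. Relative to the mean of the controls, the median gene lay at a log2 difference of 0.09 in Carbo 1, 0.35 in Carbo 2 and 0.70 in Carbo 3, so Carbo 1 lay within the control range of -0.18 to 0.13. In Carbo+COM33 the same medians lay between -0.15 and -0.08. The median coefficient of variation between libraries was 12.6% in control, 21.6% in Carbo and 8.01% in Carbo+COM33, against 10.2%, 12.5% and 11% over all tested genes. In Carbo it ran from 2.85% to 64.2% over the 45 genes.

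**Figure D2:**
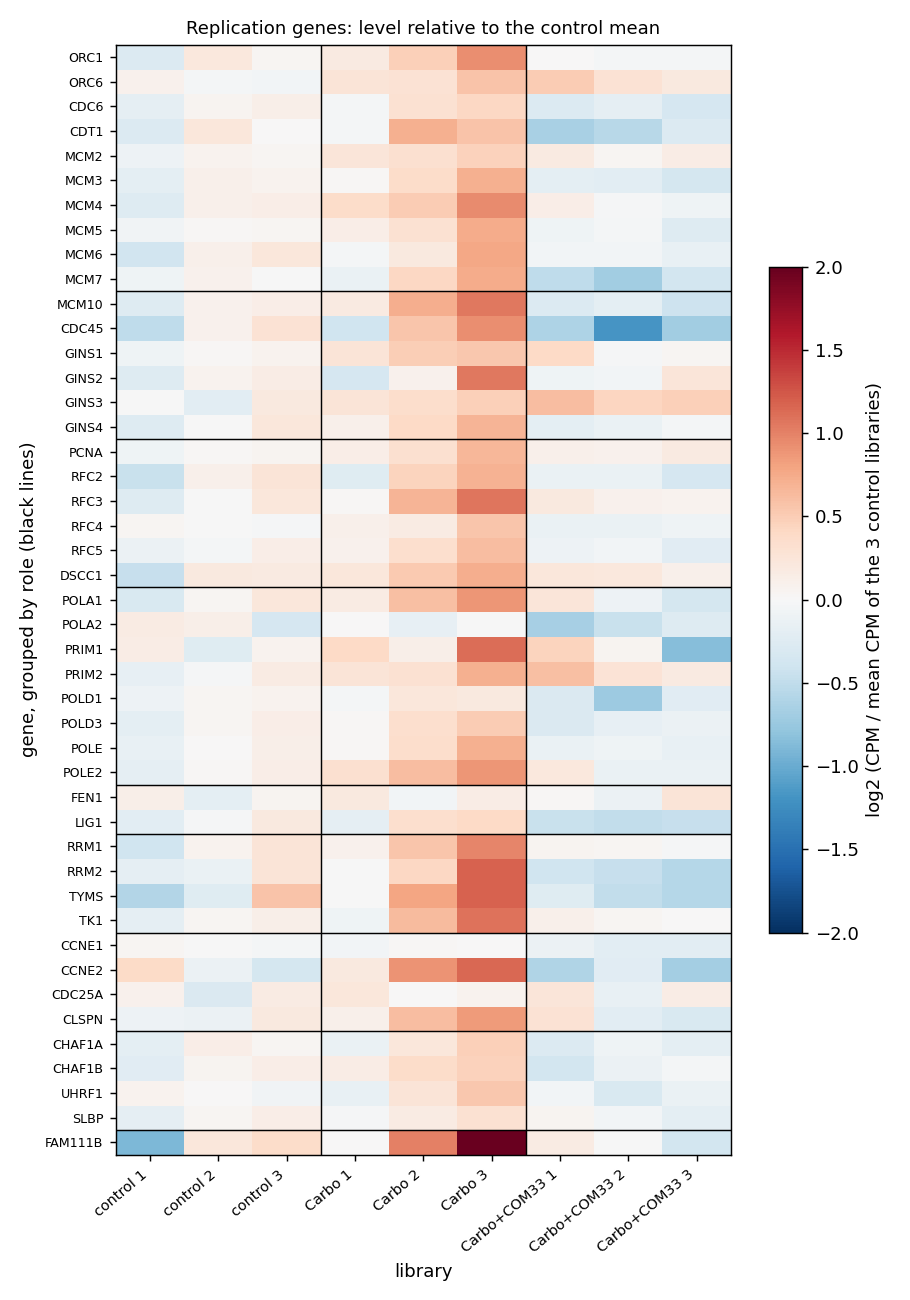
Level of each gene (rows, grouped by role) in each library (columns), as the log2 ratio of its CPM to the mean of the 3 control libraries, red above and blue below. Carbo 3 is the reddest column and holds the highest value for 38 of the 45 genes, and Carbo 1 is close to the controls.

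Carbo against control asked how the drug alone changed expression. Replication genes were higher in the Carbo libraries, by about 1.3-fold in sum (ratio of summed CPM 1.31), with 43 of 45 log2 fold changes positive. How many passed the test depended on whether same-numbered libraries were treated as pairs and on which libraries entered the fit. Unpaired, the quasi-likelihood test of edgeR (adjusted by Benjamini-Hochberg) called 0 of the 45 (lowest adjusted p = 0.220) and 0.0% of all genes higher. At an unadjusted p under 0.05 there were 30 of the 45, each with a positive fold change. Of the 16450 genes, 2748 passed that level in either direction and 1342 with a positive fold change. DESeq2 called 1, MCM4, where it called 0.523% of all genes higher. In the paired test, a block for the replicate number fitted to the 6 libraries compared, 33 of the 45 rose and 0 fell, where 11.2% of all genes rose and 11.5% fell. The labels do not give this pairing. It was taken up because same-numbered libraries deviated together in these same counts, and it leaves 2 residual degrees of freedom. The paired calls here and below thus rest on a choice made from the data they test. The same block fitted over all 9 libraries called 0 of the 45 (lowest adjusted p = 0.199) and 0.0% of all genes. There 31 of the 45 had an unadjusted p under 0.05, each with a positive fold change, against 1506 of the 16450 genes with a positive one. That fit also ties the Carbo+COM33 libraries to the numbers, although their deviations did not follow them. Whether this bears on the count of 0 was not tested. The median log2 fold change was 0.39 unpaired and 0.37 paired, against 0.0009 and -0.0016 over all tested genes.

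Pair by pair, 39, 44 and 44 of the 45 genes were higher in Carbo, at median ratios of 1.16, 1.26 and 1.50, and 38 genes were higher in all 3 pairs. For 13 genes the 3 Carbo values all lay above the 3 control values and for 0 genes below, where 10.8% of all genes lay above. Left out in turn, Carbo 1 alone changed the unpaired count: without it 25 of the 45 were called higher, against 3.33% of all genes. Without Carbo 3 the median log2 fold change was 0.24. Genes rich in GC behaved unlike AT-rich ones in this comparison. In the paired fit the median log2 fold change was 0.16 for genes under 40% GC and -0.24 for genes over 60% GC. The 45 genes had a median GC content of 48.5% (48.3% over tested genes), and 3 exceeded 60%. With GC and length trends removed in the paired fit, 32 rose, against 5.39% of all genes. Genes within the inner GC range of the 45 (43.5% to 53.7%) had a median log2 fold change of 0.0073.

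All 10 origin licensing genes rose in the paired test, and 8 of them with GC and length trends removed, where CDC6 (adjusted p = 0.0739) and MCM6 (adjusted p = 0.115) did not pass. MCM4 stood highest among them. It measured 44.2, 56.7 and 58.1 CPM in control 1 to 3 and 68.1, 75.2 and 101.6 CPM in Carbo 1 to 3. The groups did not overlap, and the paired log2 fold change was 0.61 (SE 0.0698, adjusted p = 1.9e-05, against 0.62, SE 0.145 and adjusted p = 0.220 unpaired). MCM5, another ring subunit, measured 27.9, 29.8 and 30.1 CPM in control and 32.0, 36.2 and 48.7 CPM in Carbo, a paired log2 fold change of 0.40 (SE 0.0896, adjusted p = 0.00436). For MCM2 the values were 39.1, 44.0 and 43.1 against 49.5, 52.5 and 58.2 CPM (paired log2 fold change 0.34, SE 0.0666, adjusted p = 0.00158). ORC6, the smallest subunit of the origin recognition complex, measured 52.1, 47.6 and 47.3 against 58.3, 59.6 and 72.7 CPM (paired log2 fold change 0.37, SE 0.0752, adjusted p = 0.00209). In each of these 4 genes the lowest Carbo library lay above the highest control. CDC6, a loader of the helicase, had the smallest change of the licensing genes, with a paired log2 fold change of 0.24, and its groups overlapped.

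Of the 6 genes of helicase activation, 5 rose in the paired test. MCM10, which helps to switch the helicase on, measured 8.60, 10.9 and 11.3 CPM in control and 11.6, 17.0 and 21.4 CPM in Carbo. Its paired log2 fold change was 0.68 (SE 0.118, adjusted p = 0.000612). GINS1 measured 28.7, 30.8 and 31.8 against 36.4, 42.8 and 44.4 CPM (0.43, SE 0.073, adjusted p = 0.000512), and GINS3 measured 19.4, 16.9 and 22.4 against 23.3, 25 and 27.1 CPM (0.36, SE 0.0922, adjusted p = 0.00904). These 3 had no overlap between groups. With GC and length trends removed, GINS3 was no longer called (adjusted p = 0.0627, range over the alternatives to the paired fit 0.00102 to 0.173). GINS2 was not called (0.32, adjusted p = 0.206). It measured 6.38, 7.99 and 8.42 CPM in control and 5.99, 8.08 and 15.7 CPM in Carbo, so that Carbo 3 alone stood above the controls.

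Clamp and clamp loader genes rose in the paired test, 6 of 6, and 4 of 6 with GC and length trends removed. PCNA measured 42.8, 46.2 and 47.1 CPM in control and 49.9, 56.8 and 72.2 CPM in Carbo (paired log2 fold change 0.38, SE 0.0741, adjusted p = 0.00149). DSCC1, part of an alternative clamp loader, measured 3.54, 5.53 and 5.47 against 5.65, 6.94 and 8.02 CPM (0.50, SE 0.165, adjusted p = 0.0362). It passed in none of the 4 alternatives to the paired test, at adjusted p = 0.0827 to 0.160, the highest with GC and length trends removed. RFC3 had the highest value of this class at 0.62, and RFC4 the lowest at 0.27 (adjusted p = 0.0460, and 0.141 with GC and length trends removed). PCNA and RFC3 have annotated pseudogene copies, between which reads may be split.

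Among the polymerase and primase genes 5 of 8 rose in the paired test. With GC and length trends removed there were also 5, with POLD1 gained (adjusted p = 0.00411) and POLD3 lost (adjusted p = 0.176). POLE2, the second subunit of polymerase epsilon, measured 6.72, 7.73 and 8.28 CPM in control and 9.42, 11.6 and 14 CPM in Carbo (paired log2 fold change 0.61, SE 0.131, adjusted p = 0.00281). PRIM2 measured 17.4, 19.1 and 21.8 against 23.2, 23.9 and 31.8 CPM (0.43, SE 0.0878, adjusted p = 0.00219). Both had Carbo values wholly above the controls. POLA2 measured 4.58, 4.40 and 3.22 CPM in control and 4.10, 3.63 and 4.04 CPM in Carbo, with overlapping groups and a paired log2 fold change of -0.05 (SE 0.203, adjusted p = 0.902). PRIM1, the catalytic primase subunit (0.58, adjusted p = 0.143), and POLD1, the catalytic subunit of polymerase delta (0.13, adjusted p = 0.285), were not called either.

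All 4 nucleotide supply genes rose in the paired test, with a median log2 fold change of 0.57, and in each of them Carbo 1 lay below the highest control. TYMS, thymidylate synthase, had the highest value (0.74, adjusted p = 0.000975) and RRM1 the lowest (0.57, adjusted p = 2.26e-05). TK1 shows the spread: it measured 35.4, 41.2 and 43.5 CPM in control and 37.7, 61.9 and 85.1 CPM in Carbo. Neither lagging-strand gene passed. FEN1, the flap nuclease, had a paired log2 fold change of 0.11 (adjusted p = 0.354) and LIG1, DNA ligase I, 0.20 (adjusted p = 0.128). With GC and length trends removed LIG1 passed (0.33, adjusted p = 0.0247). In the S-phase and fork checkpoint class CLSPN, an adaptor of the fork checkpoint, rose (0.54), and 3 of 4 genes did not pass. CCNE1, cyclin E1, measured 22.1, 21.2 and 20.9 CPM in control and 20.6, 21.8 and 21.4 CPM in Carbo, a paired log2 fold change of -0.01 (SE 0.0884). CDC25A, the phosphatase that activates CDK2, stood at 0.11 (adjusted p = 0.520). CHAF1B, a subunit of the chromatin assembly factor, rose from 14.3, 17.4 and 18.3 to 18.4, 21.5 and 22.9 CPM (0.33, SE 0.0927, adjusted p = 0.0161). The other chromatin and histone genes, CHAF1A, UHRF1 and SLBP, did not pass, but with GC and length trends removed all 4 of the class did. FAM111B, a protease expressed in S phase, rose by the largest log2 fold change of the 45 (1.15, adjusted p = 0.000853). It measured 1.59, 3.46 and 3.83 CPM in control and 2.96, 5.98 and 11.6 CPM in Carbo, and the groups overlapped.

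Carbo+COM33 against Carbo asked how expression differed once COM33 was added to the drug. Replication genes were lower with COM33, to 0.729 of the Carbo sum, and 44 of the 45 log2 fold changes were negative. The quasi-likelihood test of edgeR (adjusted by Benjamini-Hochberg) called 12 genes lower and 0 higher, against 2.53% of all genes lower and 2.43% higher. The 12 were CDC6, CDT1, MCM3, MCM4, MCM5, MCM7, MCM10, CDC45, POLD1, LIG1, RRM2 and CCNE2. DESeq2 called 23 lower, against 4.13% of all genes. The median log2 fold change was -0.53, against -0.0064 over all tested genes. The exception in sign was GINS3, at 0.15. For 26 genes every Carbo+COM33 library lay below every Carbo library, and for 0 above, where 11.9% of all genes lay below.

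The count of called genes moved with single libraries. Without Carbo 1, the Carbo library nearest the controls, 32 of the 45 were called lower, against 8.79% of all genes. The count was 0 without Carbo 2, Carbo+COM33 1 or Carbo+COM33 2, where 0.298%, 0.505% and 0.523% of all genes were called lower. It was 1 without Carbo 3 (0.657% of all genes), 3 without Carbo+COM33 3 (1.36%) and 6 without control 2 (1.51%). The median log2 fold change was -0.34 without Carbo 3. The summed level of the epithelial and SKOV3 markers also differed, at 2797 to 3216 CPM in Carbo+COM33 against 3577 to 3735 CPM in Carbo and 3661 to 3813 CPM in control. ERBB2 weighs most in this sum, as it alone ran from 1485 to 2532 CPM over the 9 libraries. The sum therefore does not show that the markers differed as a class. The part of this difference in these results was not tested. Genes within the inner GC range of the 45 had a median log2 fold change of -0.0104 here.

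**Figure D3:**
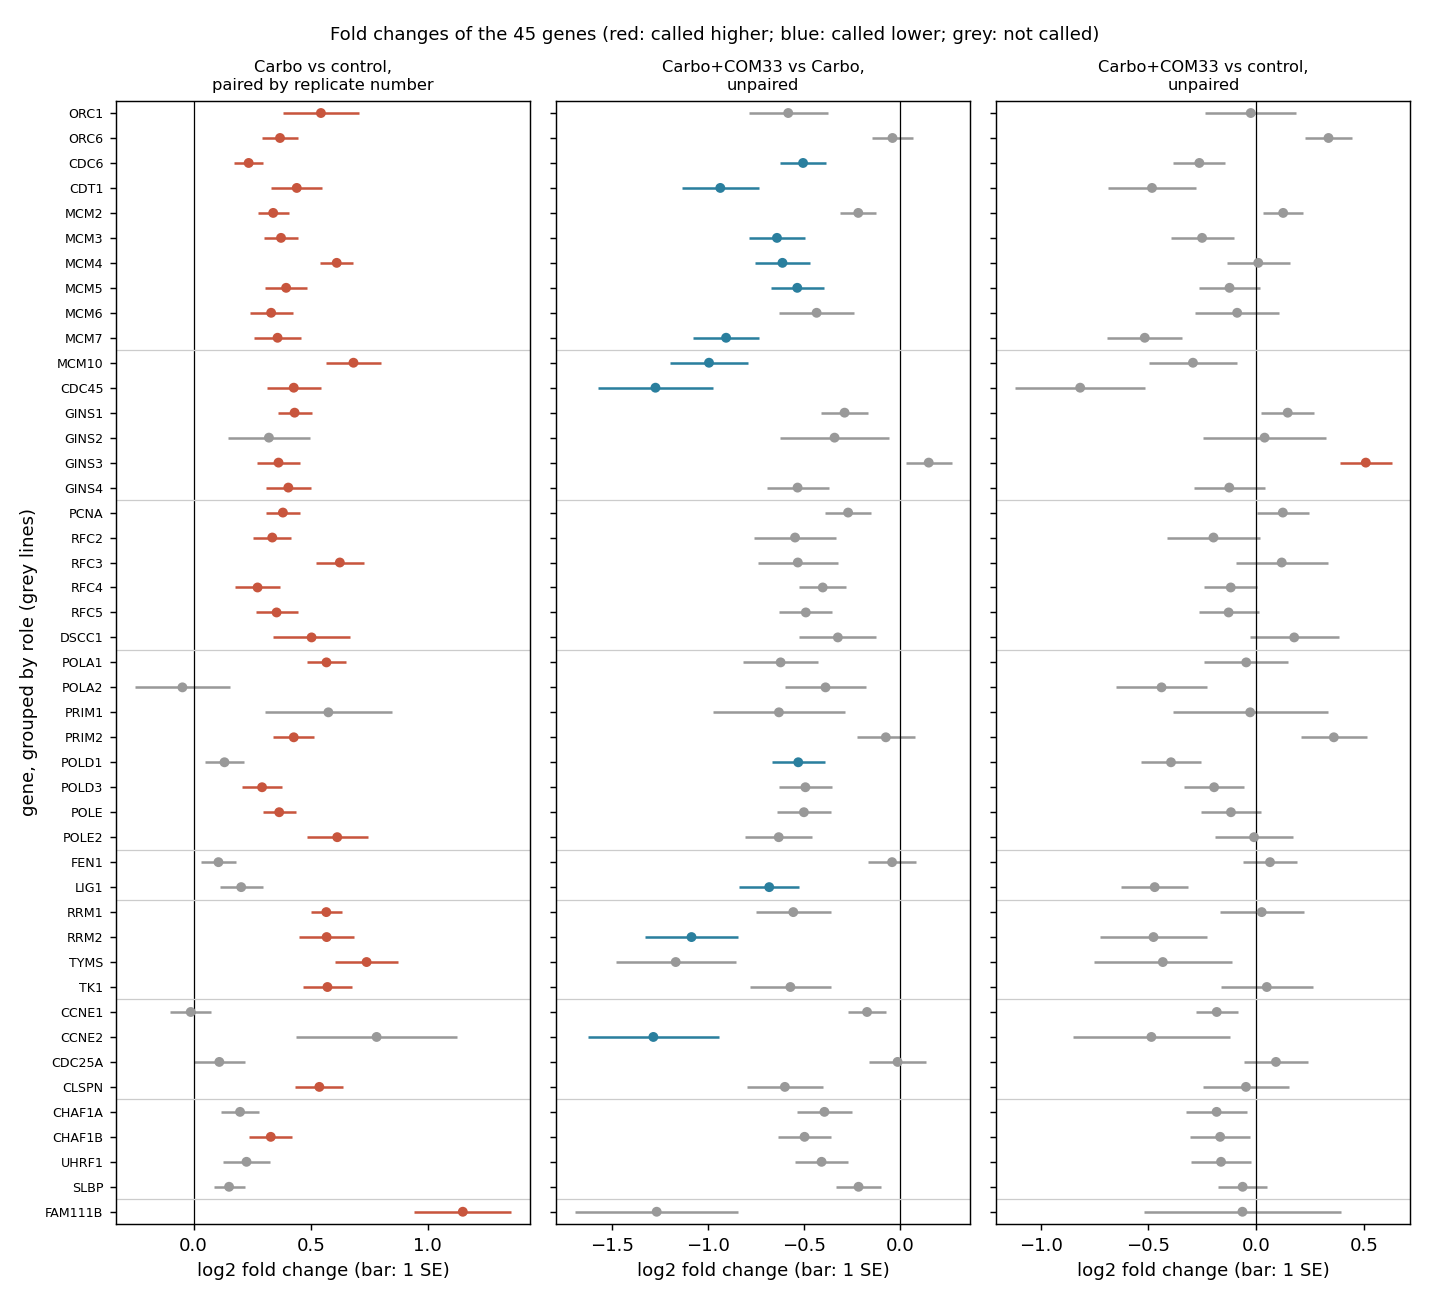
Log2 fold change of each of the 45 genes (rows, grouped by role) with bars of 1 SE, for Carbo against control in the paired fit, Carbo+COM33 against Carbo and Carbo+COM33 against control. Called genes are red where higher and blue where lower: 33 are red on the left, 12 blue in the middle, and GINS3 alone is coloured on the right.

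In the licensing class 6 of 10 genes fell. CDT1, which loads the helicase with CDC6 and is degraded in S phase, had the largest change of the class. It measured 12.1, 20.5 and 18.5 CPM in Carbo 1 to 3 and 7.95, 8.52 and 10.3 CPM in Carbo+COM33 1 to 3 (log2 fold change -0.94, SE 0.199, adjusted p = 0.0197). CDC6 measured 49.4, 62.8 and 67.6 CPM in Carbo and 41.9, 44.6 and 40.2 CPM with COM33 (-0.51, SE 0.12, adjusted p = 0.0326). In both genes the groups stood apart.

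Of the helicase ring, 4 of 6 subunits fell. MCM7 measured 41.6, 60.9 and 76.4 CPM in Carbo and 32.1, 28.1 and 35.3 CPM in Carbo+COM33 (log2 fold change -0.91, SE 0.173, adjusted p = 0.0118). MCM7 shares 392 exon bases with AP4M1 on the opposite strand, which had a mean count of 96.9 against 669.8 for MCM7. MCM3 measured 54.5, 68.7 and 87.1 against 46.6, 46.3 and 41.9 CPM (-0.64, SE 0.145, adjusted p = 0.0263), and MCM4 measured 68.1, 75.2 and 101.6 against 58.1, 51.9 and 50.1 CPM (-0.61, SE 0.145, adjusted p = 0.0322). For MCM5 the values were 32.0, 36.2 and 48.7 against 27.6, 28.6 and 24.5 CPM (-0.54, SE 0.139, adjusted p = 0.0452, and 0.0513 with GC and length trends removed, range over alternatives 0.0011 to 0.168). MCM2 (-0.22, adjusted p = 0.188) and MCM6 (-0.43, adjusted p = 0.206) were not called, although their groups did not overlap either. ORC6 was the licensing gene with the smallest difference (-0.04, adjusted p = 0.869), at 69.8, 59.7 and 55.9 CPM with COM33.

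Among the helicase activators, the partners of the ring did not move alike. CDC45, which binds the ring together with GINS, measured 9.42, 18.1 and 23.5 CPM in Carbo and 8.03, 5.45 and 7.62 CPM in Carbo+COM33 (log2 fold change -1.27, SE 0.298, adjusted p = 0.0304). MCM10 measured 11.6, 17.0 and 21.4 against 8.47, 8.94 and 7.69 CPM (-0.99, SE 0.201, adjusted p = 0.0152), a fold of 0.502. None of the 4 GINS subunits was called. GINS3 measured 23.3, 25 and 27.1 CPM in Carbo and 30, 26.4 and 27.1 CPM with COM33 (0.15, SE 0.119, adjusted p = 0.501), and the other 3 had log2 fold changes of -0.29 (GINS1), -0.34 (GINS2) and -0.53 (GINS4). No test was made of the difference between CDC45 and GINS.

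The clamp and its loaders had 0 of 6 genes called, with a median log2 fold change of -0.45. PCNA had the smallest difference of the class (-0.27, adjusted p = 0.200) and RFC2 the largest (-0.55, adjusted p = 0.153). RFC4 and RFC5 had Carbo+COM33 values wholly below Carbo, at adjusted p = 0.0736 and 0.0590.

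POLD1 was the polymerase gene called lower, from 22.9, 27.5 and 26.8 CPM in Carbo to 19.2, 14.2 and 20.1 CPM with COM33 (log2 fold change -0.53, SE 0.137, adjusted p = 0.0439, range over alternatives 0.00495 to 0.193). Its call was lost in 11 alternatives and kept in 8. POLE2 (-0.63, adjusted p = 0.0577), POLE, the catalytic subunit of polymerase epsilon (-0.50, adjusted p = 0.0586), and POLD3, an accessory subunit of polymerase delta (-0.49, adjusted p = 0.0608), were not called, and their groups did not overlap. PRIM2 had the smallest difference, -0.07. LIG1, which seals nicks between lagging-strand fragments, fell from 18.0, 25.8 and 26.8 CPM to 14.9, 14.5 and 14.7 CPM (-0.68, SE 0.155, adjusted p = 0.0270). FEN1, which trims the same fragments, measured 33.9, 28.6 and 32.9 CPM in Carbo and 29.9, 27.4 and 35.4 CPM with COM33, with overlapping groups (-0.04, adjusted p = 0.877).

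RRM2, the small subunit of ribonucleotide reductase, measured 15.5, 20.9 and 35.4 CPM in Carbo and 11.9, 11.4 and 10.5 CPM in Carbo+COM33 (log2 fold change -1.09, SE 0.244, adjusted p = 0.0252). RRM2 has annotated pseudogene copies that could take part of its reads. It also shares 1077 exon bases with AC007240.1 on the same strand, where reads may go uncounted. RRM1, the large subunit, was not called (-0.56, adjusted p = 0.115). TYMS, at 7.53, 13.2 and 17.3 CPM against 6.41, 5.38 and 5.13 CPM, just missed the threshold (-1.17, adjusted p = 0.0506). Its exons share 967 bases with ENOSF1 on the opposite strand, which had a mean count of 840.8 against 126.7 for TYMS, and whether counting used strand is not given in the sources used here. CCNE2 measured 1.41, 2.29 and 2.72 CPM in Carbo and 0.810, 1.05 and 0.762 CPM with COM33 (-1.28, SE 0.342, adjusted p = 0.0497). It is the least abundant of the 45 and shares 1629 exon bases with INTS8 on the opposite strand, so its value is uncertain. Its call was lost in 14 alternatives and kept in 5. CCNE1 had non-overlapping groups with a small difference (-0.17, adjusted p = 0.321), and CDC25A stood at -0.01. Of the chromatin and histone genes none was called, and CHAF1B had the largest difference (-0.50, adjusted p = 0.0580). FAM111B fell short of the threshold (-1.27, SE 0.425, adjusted p = 0.104), at 3.31, 2.93 and 2.29 CPM with COM33.

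**Figure D4:**
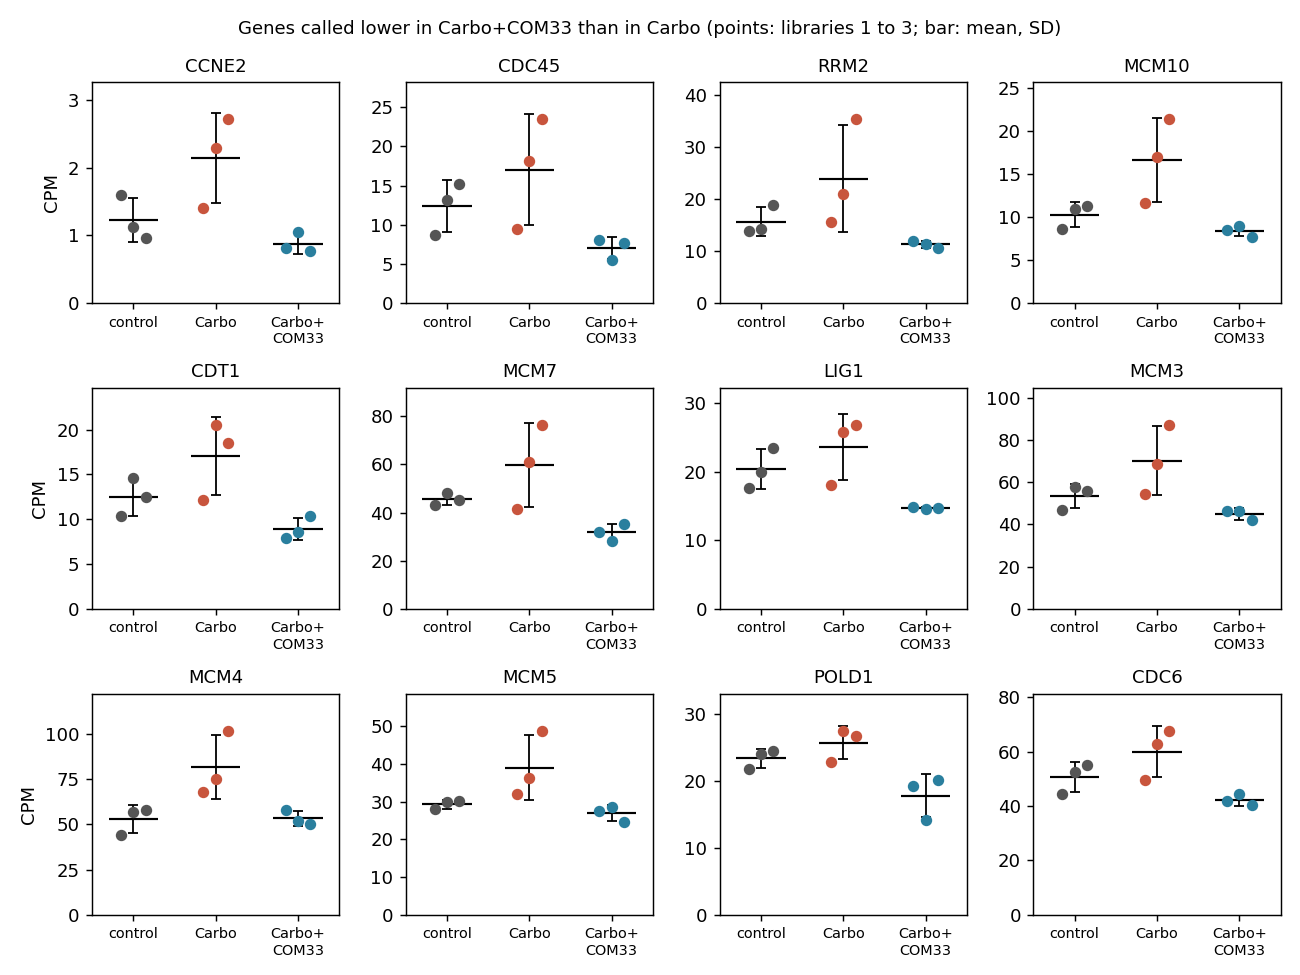
CPM of the 12 genes called lower in Carbo+COM33 than in Carbo, with 1 point per library, a line at the mean and bars of 1 SD (n = 3), each axis starting at 0. In each panel the 3 Carbo+COM33 points lie below the 3 Carbo points, and Carbo 1 is the lowest Carbo point.

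Carbo+COM33 against control compared cells given both agents with untreated cells. The 2 earlier comparisons share the Carbo libraries with each other, and each shares a group with this one, so the 3 are not independent. The summed level of the 45 genes with both agents was 0.953 of that in control, the median log2 fold change was -0.12 (all tested genes -0.0139), and 14 were positive and 31 negative. Without control 3 that median was -0.0086. The same edgeR test called 1 gene higher and 0 lower, where 3.20% of all genes were higher and 3.09% lower. DESeq2 called 1 higher and 2 lower, where 5.14% of all genes were higher and 4.36% lower. For 4 genes (ORC6, GINS3, PCNA and PRIM2) all Carbo+COM33 values lay above the controls, where 14.3% of all genes did. For 10 genes (CDC6, CDT1, MCM3, MCM7, CDC45, RFC4, POLD1, LIG1, RRM2 and CCNE1) they lay below, where 14.4% of all genes did.

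GINS3 was the gene called higher. It measured 19.4, 16.9 and 22.4 CPM in control and 30, 26.4 and 27.1 CPM in Carbo+COM33 (log2 fold change 0.51, SE 0.12, adjusted p = 0.0293). Leaving out control 2, Carbo 2, Carbo+COM33 1 or Carbo+COM33 2 ended this call, with 0 of the 45 then called, where 0.693%, 3.84%, 0.930% and 1.08% of all genes were called in either direction. The count was 4 without Carbo 1 (11% of all genes), 2 without Carbo 3 (6.98%) and 2 without Carbo+COM33 3 (13.4%). ORC6 measured 52.1, 47.6 and 47.3 CPM in control and 69.8, 59.7 and 55.9 CPM with both agents (0.34, SE 0.11, adjusted p = 0.0871). On the other side CDC45, at 8.73, 13.2 and 15.2 CPM in control and 8.03, 5.45 and 7.62 CPM with both agents, had the lowest value (-0.82, SE 0.302, adjusted p = 0.121). MCM7 (-0.52, SE 0.174, adjusted p = 0.0936), LIG1 (-0.47, SE 0.156, adjusted p = 0.0897) and POLD1 (-0.39, SE 0.137, adjusted p = 0.102) did not pass, with groups that did not overlap. MCM4, the gene DESeq2 called in Carbo against control, stood at 0.0098 (SE 0.146), with 53.0 ± 7.68 CPM in control and 53.4 ± 4.18 CPM with both agents.

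The rest of the replication apparatus was examined through 52 further genes, of which 51 were tested. They cover the other ORC subunits, the kinase CDC7 with DBF4, geminin, replication protein A, the remaining polymerase subunits, topoisomerases and further nucleotide enzymes. In Carbo against control 0 were called unpaired, and in the paired fit 28 rose and 2 fell, where 11.2% and 11.5% of all genes did, with a median log2 fold change of 0.20. ATAD5, which unloads PCNA, had the highest value (0.74, adjusted p = 0.00195), followed by TOP2A, topoisomerase II alpha (0.69). TYMP, which breaks thymidine down, had the lowest (-0.53), followed by POLD4, a small subunit of polymerase delta, which was not called (-0.49, adjusted p = 0.146). DESeq2 called 6 higher and 1 lower, against 0.523% and 0.286% of all genes. In Carbo+COM33 against Carbo 4 fell and 0 rose (2.53% and 2.43% of all genes), with a median of -0.23. These were CDK2, the kinase partner of cyclin E (-0.61, adjusted p = 0.0187), ASF1B, a histone chaperone (-0.47), RPA1, the large subunit of the single-strand binding complex (-0.42), and CHTF18, of the alternative clamp loader that also holds DSCC1 (-0.39). In Carbo+COM33 against control TOPBP1, which acts in helicase activation and checkpoint signalling, rose (0.38, adjusted p = 0.0355), 0 fell, and the median was 0.02.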

How the data were processed

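Per the labels' protocols, poly-A RNA of SKOV3 cells was made into NEBNext Ultra libraries and sequenced in paired ends. The submitters' processing notes name HISAT2, HTSeq 0.11.2, DESeq2 1.26.0 and build GRCh38, with no settings. The authors deposited read counts per gene and, beside them, FPKM values. Every gene identifier and name matched GENCODE 29. The deposited FPKM equalled count over length over total within 7.73e-12. The table holds no gene with 0 counts throughout.

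Counts were filtered with filterByExpr, scaled by TMM and fitted in all 9 libraries with edgeR 4.0.16 (quasi-likelihood, a term per group, 6 residual degrees of freedom and a common dispersion of 0.0133). A gene was called at an adjusted p under 0.05, adjusted over 16450 genes, or over 32378 in the alternative with no filter. DESeq2 left some genes without an adjusted p, and these counted as not called. In Carbo against control they included POLA2, PRIM1, CCNE2 and FAM111B. The SE is the log2 fold change over the square root of F. Across 6607 genes, each library's departure from its group mean was compared between a control and the Carbo library of its number, and these correlated at 0.824, 0.565 and 0.748. Each exceeded 0.1, so the replicate number was used as a block in those 6 libraries (2 residual degrees of freedom). The labels give no source for this pairing. For Carbo+COM33 the numbers did not pair. DESeq2 1.42.0 and limma 3.58.1 on log2(FPKM + 0.1) or log2(FPKM + 1) were alternatives, as were RLE scaling, no filter, GC and length offsets and each library left out. The scripts were tested on simulated counts for Carbo+COM33 against Carbo only. Those counts held no replicate effect, so they do not check the paired fit of Carbo against control.

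Full statistics are given for called genes, or the 12 with the largest change and no overlap where more were called, or the 6 with the lowest p where fewer than 6 were. The members and lists were chosen with earlier results of these data known. Tools were R 4.3.3, Python 3.11.15, pandas 2.3.3, numpy 2.4.6 and matplotlib 3.10.9.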

Additional observations from a re-analysis of the deposited data

How the results depend on the processing

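The median log2 fold change over the 45 genes and the fold changes of the genes given by the rule for full statistics kept their sign under the alternatives run, with 1 exception: in Carbo+COM33 vs control with the replicate block, the median ran from -0.20 without replicate 1 to 0.0068 without replicate 3 (-0.11 with all 3). POLA2 and CCNE1, named outside that rule, were near 0 in the paired Carbo vs control fit (-0.05 and -0.01) and changed sign with the GC and length correction (0.05 and 0.08). Counts of called genes moved far more than fold changes, and the causes were not tested. They are given first for the 45 genes, then for the 51 other replication genes tested, with the share of all genes called in either direction in parentheses.

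In Carbo vs control, 0 and 0 were called (0.0%). With no filter on low counts these became 18 and 11 (2.87%), with DESeq2 1 and 7 (0.809%), with the replicate block 33 and 30 (22.7%), with the block over all 9 libraries 0 and 0 (0.0%), and with the replicate block and GC and length correction 32 and 21 (10.2%). Leaving out single libraries gave 0 to 25 and 0 to 18 (0.0% to 6.29%). In the paired fit, leaving out a pair gave 22 to 37 and 19 to 31 (9.87% to 26.4%).

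In Carbo+COM33 vs Carbo, 12 and 4 were called (4.96%). No filter gave 30 and 12 (5.79%), DESeq2 23 and 10 (8.15%), the replicate block 3 and 0 (3.05%), and the block over all 9 libraries 18 and 12 (9.45%). The GC and length correction gave 16 and 9 (7.55%), the 6 libraries compared alone 10 and 1 (3.76%), limma on log2(FPKM + 0.1) 3 and 3 (2.71%), and limma on log2(FPKM + 1) 1 and 3 (2.72%). Leaving out single libraries gave 0 to 32 and 0 to 22 (0.729% to 16.5%). With the block, the GC and length correction gave 13 and 3 (6.47%), and leaving out a replicate number gave 2 to 30 and 0 to 14 (1.70% to 11.4%).

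In Carbo+COM33 vs control, 1 and 1 were called (6.29%). No filter gave 6 and 6 (5.97%), DESeq2 3 and 4 (9.50%), the replicate block 3 and 4 (6.86%), and the block over all 9 libraries 1 and 3 (9.88%). The 6 libraries compared alone gave 4 and 6 (8.89%), the block with GC and length correction 6 and 4 (10.4%), and limma on log2(FPKM + 0.1) and log2(FPKM + 1) 0 and 0 (3.96% and 3.99%). Leaving out single libraries gave 0 to 4 and 0 to 7 (0.693% to 13.4%), and with the block, leaving out a replicate number gave 0 to 9 and 1 to 22 (1.88% to 31.4%).

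The deviations of same-numbered Carbo+COM33 and Carbo libraries correlated at -0.015, 0.138 and -0.388. Those of Carbo+COM33 and control correlated at 0.085, 0.101 and -0.420. These values do not show a pairing by number, and what the numbers stand for is not known. Not every library correlated best with its own number. For the 12 called in Carbo+COM33 vs Carbo, the call was lost in 103 combinations of gene and alternative and kept in 125. It was lost most often for CCNE2 (14 lost, 5 kept), MCM5 (13 and 6) and POLD1 (11 and 8), and least for MCM7 (3 and 16). The block with a pair left out keeps 1 residual degree of freedom. Depth limits CCNE2, PRIM1, POLA2 and FAM111B most, with 187, 289, 482 and 556 counts over the 9 libraries.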
